A study of Mus musculus with 8 samples.

Results

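Mpo, Elane, Prtn3, Ctsg and Ms4a3 are 5 genes of the promyelocyte and of the granulocyte-monocyte progenitor, and 4 of them encode the main proteins of the primary granule. They were taken by gene symbol from a deposited table of 31574 genes, and each symbol matched 1 row. The primary granule, also called the azurophil granule, is the first granule that a developing neutrophil makes. It is filled at the promyelocyte stage with myeloperoxidase and with serine proteases, which are used later against engulfed microbes. Transcription of these genes is switched on in granulocyte-monocyte progenitors by PU.1, C/EBP, RUNX1 and MYB family factors and is switched off again as the neutrophil matures, so the genes mark a short window of myeloid development. In acute myeloid leukaemia, myeloperoxidase is a classical marker of myeloid blasts.

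RNA was sequenced from c-kit+ acute myeloid leukaemia cells of bone marrow from the femur and tibia of C57BL/6 mice, in 8 libraries that form 4 groups of 2. The study varied Ezh1 and Ezh2, which are the alternative catalytic subunits of Polycomb repressive complex PRC2, the enzyme that methylates histone H3 lysine 27. Cells were collected 7 days after treatment, and 1 µg of total RNA went into each library. Tamoxifen, in corn oil, was given by intraperitoneal injection at 10 mg/kg/day in 5 doses. The Ezh1-present oil group is Ezh1+/+ and received corn oil, and the Ezh1-present tamoxifen group is Ezh1+/+ Ezh2-/- after tamoxifen. The Ezh1-null oil group is Ezh1-/- and received corn oil, and the Ezh1-null tamoxifen group is Ezh1-/- Ezh2-/- after tamoxifen. For both oil groups the genotype label gives Ezh2+/+ while the series' design text gives Ezh2 flox/flox. The sample titles of all groups carry the word Moz, and the labels used here do not name the Cre driver. Tamoxifen and deletion of Ezh2 occur together in every library and cannot be told apart. Each Ezh1 genotype may stem from its own leukaemia, which cannot be told apart from the genotype either. Replicates are not stated to be separate animals, so each p-value measures the spread between these libraries, which may be technical.

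The labels were checked on the targeted genes. Ezh1 was lower in the Ezh1-null libraries by the same limma fit used throughout, with a log2 change of -3.53 ± 0.10 (SE, n = 2 against 2, adjusted p = 0.00107) in oil and -3.17 ± 0.10 (adjusted p = 0.000793) after tamoxifen. Ezh2 RNA differed less between tamoxifen and oil, by -0.18 ± 0.08 with Ezh1 present (adjusted p = 0.293) and -0.47 ± 0.08 with Ezh1 null (adjusted p = 0.0554, limma), and neither difference passed. Whether the counted reads lie in the deleted part of Ezh2 is not given in the sources used here. Kit, which encodes c-kit, had no tie at its lowest value. It differed with Ezh1, at -0.64 and -0.71 in Ezh1-present oil and 0.53 and 0.64 in Ezh1-null oil. As a guide to relative depth, 1 read was worth a normalized value of 0.746 at the deepest (replicate 1 of Ezh1-present tamoxifen) and 1.24 at the shallowest (replicate 1 of Ezh1-null oil). Total read counts per library are not recoverable from the deposited values. Ezh1-present tamoxifen replicate 2 stood apart from its partner in markers of other lineages, with a median of 1.84 against -0.44 over 6 erythroid genes, 2.25 against 0.84 over 6 megakaryocyte genes and 1.68 against -0.71 over 6 eosinophil genes, all on the log2 relative scale. Replicates of the other groups also differed in some lists. The medians were 0.06 and 1.41 over erythroid genes in Ezh1-null oil and -0.89 and -2.76 over B cell genes in Ezh1-present oil. They were 0.88 and 2.31 over mast cell and basophil genes in Ezh1-null tamoxifen. Tests of the members that use the Ezh1-present tamoxifen group are given with and without replicate 2 of that group.

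The start of each gene is described first, because 4 of the 5 members share a short promoter sequence. The members lie at 4 places on 4 chromosomes. Prtn3 (Entrez gene 19152, chr10:79879667-79883172) and Elane (50701, chr10:79886312-79888216) are neighbours in the deposited coordinates (mm10), and 3140 bp separate the end of Prtn3 from the start of Elane. Mpo (17523) lies at chr11:87793784-87804412, Ctsg (13035) at chr14:56099881-56102574 and Ms4a3 (170813) at chr19:11629497-11640834. RefSeq promoter windows of build GRCm38.p6 (300 bases, from 250 before to 50 after the start site) were found for all 5 genes. Each window was searched on both strands for the letters AGGAAGT of an ETS factor such as PU.1, TTGCNNAA of C/EBP, TGTGGT of RUNX, AACGG of MYB and TATAA of the TATA box. No matches overlapped in the members' windows. The stretches of the windows around the ETS letters are printed 5′ to 3′ on the strand of the gene, with matches in capitals.
Elane promoter, chr10:79886212-79886292, plus strand: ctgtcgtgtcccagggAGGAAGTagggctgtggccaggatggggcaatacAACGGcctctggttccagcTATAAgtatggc
Prtn3 promoter, chr10:79879567-79879647, plus strand: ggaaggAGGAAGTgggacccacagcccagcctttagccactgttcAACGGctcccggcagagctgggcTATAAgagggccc
Mpo promoter, chr11:87793545-87793583, plus strand: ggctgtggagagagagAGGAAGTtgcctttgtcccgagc
Ctsg promoter, chr14:56102758-56102796, minus strand: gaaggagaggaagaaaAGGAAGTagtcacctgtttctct

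Elane and Prtn3 hold the same 3 motifs in the same order and on the same strand. In Elane the ETS letters begin 84 bases before the start site, the MYB letters 50 and the TATA letters 31. In Prtn3 they begin at 94, 55 and 32 bases before it. Mpo holds the ETS letters 223 bases before its start and none of the other motifs. Ctsg holds the ETS letters 206 bases before its start and, on the opposite strand, RUNX letters that span 79 to 74 bases before it and TATA letters that span 236 to 232. Ms4a3 holds none of the letters before its start and a C/EBP match 42 to 49 bases after it. The ETS letters were thus in 4 of 5 members and in 9.35% of all 32851 promoter windows of the same length. The other shares of all windows were 10.8% for C/EBP (1 of 5 members), 16.8% for RUNX (1 of 5), 17.4% for MYB (2 of 5) and 24.9% for TATA (3 of 5). A match is a description of the letters and not a measured binding site. The windows also differed in CpG content, with 0 CpG in Ms4a3, 2 in Mpo, 4 in Prtn3, 6 in Elane and 8 in Ctsg, against a median of 7 over all windows.

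**Figure D1:**
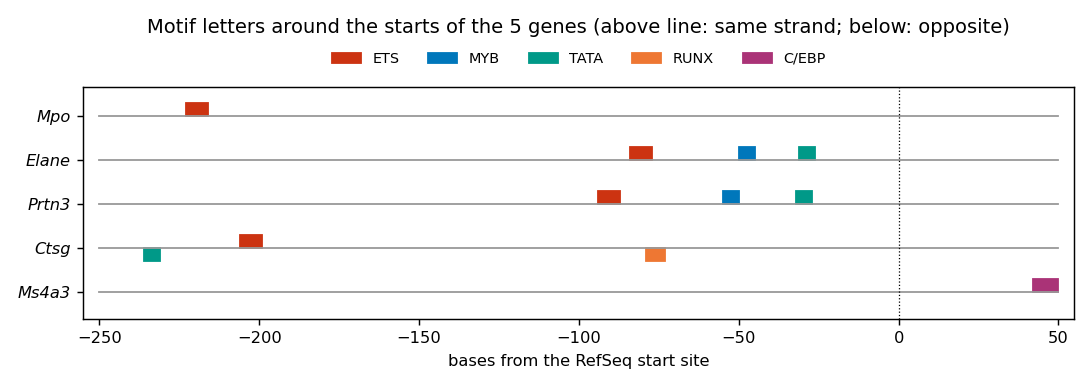
Positions of the motif matches in the 5 promoter windows, by distance in bases from the start site (x axis) and gene (y axis), with 1 mark per match. The ETS letters occur in Mpo, Elane, Prtn3 and Ctsg but not in Ms4a3, and Elane and Prtn3 carry ETS, MYB and TATA letters in the same order.

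Expression is given on the scale of the deposited table, the log2 normalized value of a gene in a library minus that gene's median over the 8 libraries. A value of 0 is therefore the gene's own median and 1 unit is a 2-fold difference. Levels of different genes cannot be compared on this scale. None of the 5 members had libraries tied at their lowest value, the sign by which the floor of the values was recognised, and all entered the test. A single library at the floor cannot be recognised in this way, so a fold against Ezh1-present oil could be an underestimate if replicate 1 was there. Among them the width of the response varied, from a 2.44-fold range between the lowest and highest library in Ctsg and 4.69-fold in Mpo and 4.70-fold in Prtn3 to 96.7-fold in Elane and 248-fold in Ms4a3. In each of the 5 genes the lowest library was Ezh1-present oil replicate 1 and the highest was Ezh1-null oil replicate 2.

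Mpo encodes myeloperoxidase, the haem enzyme that makes hypochlorous acid. Its log2 relative values were -1.31 and -1.10 in Ezh1-present oil, -0.57 and -0.84 in Ezh1-present tamoxifen, 0.61 and 0.92 in Ezh1-null oil and 0.57 and 0.73 in Ezh1-null tamoxifen. All 4 Ezh1-null libraries were above all 4 Ezh1-present libraries, and the values of the Ezh1-null groups overlapped each other. The share of all genes with such a separation of the 8 libraries, here and for the members below, was not computed.

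Elane encodes neutrophil elastase, the gene whose mutations cause cyclic and severe congenital neutropenia in people. Its values were -4.39 and -3.39 in Ezh1-present oil, -1.54 and -1.03 in Ezh1-present tamoxifen, 1.51 and 2.21 in Ezh1-null oil and 1.20 and 1.03 in Ezh1-null tamoxifen. No pair of groups overlapped for this gene, and the order from low to high was Ezh1-present oil, Ezh1-present tamoxifen, Ezh1-null tamoxifen and Ezh1-null oil.

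Prtn3 encodes proteinase 3, a serine protease closely related to elastase and the target of autoantibodies in granulomatosis with polyangiitis. Its values were -1.33 and -0.87 in Ezh1-present oil, -0.40 and -0.66 in Ezh1-present tamoxifen, 0.62 and 0.90 in Ezh1-null oil and 0.40 and 0.44 in Ezh1-null tamoxifen. The groups followed the same order as for Elane without overlap, over a narrower range.

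Ctsg encodes cathepsin G, a serine protease with chymotrypsin-like activity. Its values were -0.74 and -0.56 in Ezh1-present oil, -0.30 and -0.53 in Ezh1-present tamoxifen, 0.30 and 0.54 in Ezh1-null oil and 0.38 and 0.51 in Ezh1-null tamoxifen. The Ezh1-present and Ezh1-null libraries did not overlap, while the Ezh1-null tamoxifen values lay between those of the Ezh1-null oil replicates.

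Ms4a3 encodes a membrane protein of the MS4A family that marks granulocyte-monocyte progenitors and is not a granule protease. Its values were -6.71 and -4.49 in Ezh1-present oil, -1.26 and -0.44 in Ezh1-present tamoxifen, 0.65 and 1.25 in Ezh1-null oil and 0.68 and 0.44 in Ezh1-null tamoxifen. The Ezh1-present oil replicates differed from each other by more than the 3 other groups differed in mean. The Ezh1-null groups overlapped each other.

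**Figure D2:**
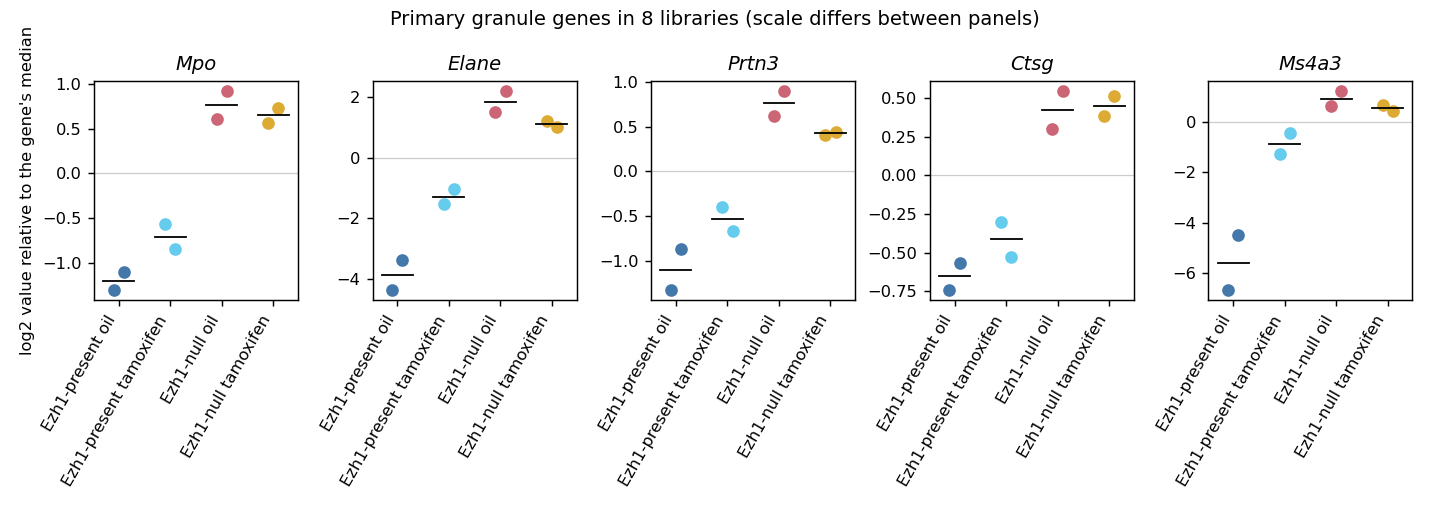
Log2 normalized value relative to the gene's median (y axis) for each of the 5 genes in the 8 libraries, by group (x axis), with 1 point per library and a line at the group mean; the y scale differs between panels. All 4 Ezh1-null libraries lie above all 4 Ezh1-present libraries in every panel, and Ms4a3 reaches -6.71 in Ezh1-present oil. The share of all genes tested with this separation was not computed. Ezh1 null lay apart and higher in 31% of genes in oil and in 30.7% after tamoxifen.

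With loss of Ezh1 in oil-treated cells, all 5 genes rose. Elane was 53.6-fold higher in Ezh1-null oil than in Ezh1-present oil (log2 change 5.74 ± 0.42 SE, limma adjusted p = 0.0028). Ms4a3 was 93.5-fold higher (6.55 ± 0.76, adjusted p = 0.00604), with 43.3-fold without Ezh1-present oil replicate 1 and 201.7-fold without replicate 2 of that group, both called. Mpo was 3.91-fold higher (1.97 ± 0.17, adjusted p = 0.00352), Prtn3 3.64-fold (1.86 ± 0.20, adjusted p = 0.00522) and Ctsg 2.11-fold (1.08 ± 0.14, adjusted p = 0.0084). The adjacent genes Elane and Prtn3 thus differed in the size of their change, with 95% intervals on the log2 scale of 4.68 to 6.81 and 1.35 to 2.37 that did not overlap. Over all 18051 genes tested, 12.5% were called higher and 12.4% lower at an adjusted p under 0.05. The groups lay apart with Ezh1 null higher for all 5 members, as for 31% of all genes tested. The members' median log2 change was 1.97, beside -0.04 over all genes. By size of rise Ms4a3 was the 22nd and Elane the 46th gene of the table, and 8.98% of genes had a larger rise than Ctsg. Without Ezh1-present oil replicate 1, the Ctsg change was 0.99 with an adjusted p of 0.05001 and was no longer called. The smallest p that an exact two-sided permutation test of 2 against 2 libraries can give is 0.333, so each call rests on limma's model of the spread. That model takes each gene's own spread over all 4 groups, with 4 residual degrees of freedom. It adds a smaller part from the other genes, with 1.24 prior degrees of freedom. In bulk RNA, a smaller share of cells that express a gene and less of its RNA per cell cannot be told apart.

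With tamoxifen on both sides the differences between Ezh1 genotypes were smaller, and 4 of the 5 genes passed. Elane was 5.28-fold higher in Ezh1-null tamoxifen than in Ezh1-present tamoxifen (log2 change 2.40 ± 0.42, limma adjusted p = 0.0299) and Mpo 2.56-fold (1.36 ± 0.17, adjusted p = 0.0163). Prtn3 was 1.94-fold (0.96 ± 0.20, adjusted p = 0.0425) and Ctsg 1.82-fold higher (0.86 ± 0.14, adjusted p = 0.0279). The Ms4a3 difference of 1.41 ± 0.76 did not pass (adjusted p = 0.267), and its 95% interval ran from -0.52 to 3.34. Of all genes tested, 6.77% were called higher and 5.44% lower, and in 30.7% the groups lay apart with Ezh1 null higher, as they did for all 5 members. These calls were sensitive to single libraries, as were the calls over all genes, which became fewer with each library left out. Without Ezh1-present tamoxifen replicate 2, none of the 5 genes was called, and the changes were 1.22 in Mpo (adjusted p = 0.0585), 2.66 in Elane (0.0783), 0.83 in Prtn3 (0.141), 0.75 in Ctsg (0.0901) and 1.82 in Ms4a3 (0.325). None was called either when a replicate of Ezh1-null tamoxifen was left out, and only Mpo was without Ezh1-present tamoxifen replicate 1.

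Tamoxifen in the Ezh1-present leukaemia gave higher values of all 5 genes in both treated libraries, but no member passed the test. The largest differences were in Ms4a3 (log2 4.75 ± 0.76, limma adjusted p = 0.0678, 26.9-fold) and Elane (2.60 ± 0.42, adjusted p = 0.0687, 6.07-fold). By size of rise Ms4a3 was the 14th of the 18051 genes tested and Elane the 301st. The other differences were 0.57 ± 0.20 in Prtn3 (adjusted p = 0.206), 0.50 ± 0.17 in Mpo (0.199) and 0.24 ± 0.14 in Ctsg (0.412). In this comparison 0.903% of all genes were called, and in 28.5% the groups lay apart with tamoxifen higher, as they did for all 5 members. The count of 0 called members stands beside 163 called genes and 3713 genes at an unadjusted p under 0.05. Without Ezh1-present tamoxifen replicate 2 the differences were 4.34 in Ms4a3, 2.34 in Elane, 0.70 in Prtn3, 0.64 in Mpo and 0.35 in Ctsg. Without Ezh1-present oil replicate 2 the Ms4a3 change was 5.86 (58.1-fold) and was called (adjusted p = 0.0387), and without replicate 1 of that group it was 3.64 (12.5-fold) and was not (adjusted p = 0.127). After quantile normalization the differences were -0.01 in Mpo, 0.0014 in Ctsg, 0.17 in Prtn3, 1.33 in Elane and 3.51 in Ms4a3. The size of the rise in all 5 members thus depended on quantile normalization, which was applied to values already centred on each gene's median. After median scaling the differences were 0.49 in Mpo, 0.24 in Ctsg, 0.57 in Prtn3, 2.60 in Elane and 4.75 in Ms4a3. Median scaling could move them little, since the library medians of the centred values lay between 0 and 0.0051. The authors' deposited table of genes past a 2-fold change holds Ms4a3 and Elane and not the other 3 members.

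In the Ezh1-null leukaemia the tamoxifen differences did not pass in any member. They were -0.74 ± 0.42 in Elane (limma adjusted p = 0.444), -0.39 ± 0.76 in Ms4a3 (0.851), -0.34 ± 0.20 in Prtn3 (0.469), -0.12 ± 0.17 in Mpo (0.786) and 0.03 ± 0.14 in Ctsg (0.966). The 95% interval of the Mpo difference ran from -0.55 to 0.32 and that of Ms4a3 from -2.32 to 1.54, so a change of several-fold in Ms4a3 was not detectable with these libraries. Elane and Prtn3 were lower in both tamoxifen libraries than in both oil libraries, a pattern found in 24.8% of all genes tested. At an adjusted p under 0.05, 3.4% of all genes were called. The direction in Mpo changed without Ezh1-null oil replicate 2 (0.04), and that in Ctsg without Ezh1-null oil replicate 1 (-0.10) or Ezh1-null tamoxifen replicate 2 (-0.04) and after quantile normalization (-0.14).

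The difference between these tamoxifen effects (Ezh1 null minus Ezh1 present) was negative in all 5 genes and passed in none. It was -5.14 ± 1.08 in Ms4a3 (limma adjusted p = 0.148), -3.34 ± 0.59 in Elane (0.112), -0.91 ± 0.28 in Prtn3 (0.258), -0.61 ± 0.24 in Mpo (0.334) and -0.21 ± 0.20 in Ctsg (0.668). For this term 0.476% of all genes tested were called. Without Ezh1-present tamoxifen replicate 2 it was -4.73 in Ms4a3 (adjusted p = 0.323), -3.09 in Elane (0.25), -1.04 in Prtn3 (0.367), -0.75 in Mpo (0.4) and -0.33 in Ctsg (0.615). A weaker tamoxifen effect in the Ezh1-null leukaemia is therefore not shown for any member.

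Ezh1-null tamoxifen, with both genes deleted, was higher than Ezh1-present oil in all 5 members. The rise was 71.5-fold in Ms4a3 (log2 6.16 ± 0.76, limma adjusted p = 0.00774), 32.0-fold in Elane (5.00 ± 0.42, adjusted p = 0.00369) and 3.61-fold in Mpo (1.85 ± 0.17, adjusted p = 0.00435). The Ms4a3 fold was 33.1 without Ezh1-present oil replicate 1 and 154.2 without replicate 2 of that group, both called. Prtn3 rose 2.88-fold (1.53 ± 0.20) and Ctsg 2.15-fold (1.10 ± 0.14), both with an adjusted p of 0.00867. Over all genes tested 13.2% were called higher and 10.2% lower, and in 33.8% the groups lay apart with the double deletion higher, as they did for all 5 members. Without Ezh1-present oil replicate 1 the Ctsg change was 1.01 and its adjusted p 0.0517. The comparison shares libraries with those above, so its values are a restatement of the same groups and not separate evidence.

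**Figure D3:**
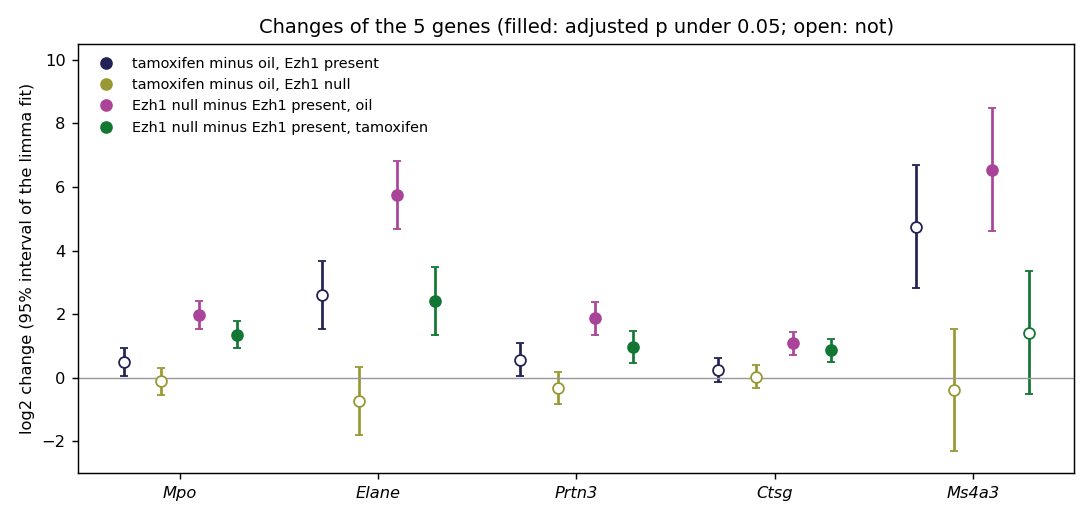
Log2 change with its 95% interval from limma (y axis) for each member (x axis), coloured by comparison, with filled points for an adjusted p under 0.05. The intervals of the Ezh1 comparison in oil all lie above 0, and the tamoxifen intervals in the Ezh1-null leukaemia all include 0.

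The members followed one another across the 8 libraries to different degrees. Pearson's r, given as a description over 8 libraries that share the same group differences, was highest between Mpo and Ctsg (0.996) and between Mpo and Prtn3 (0.987). The neighbours Elane and Prtn3 had an r of 0.977. The values of Ms4a3 were nearest to those of Elane (0.956) and farthest from those of Ctsg (0.837). The mean of the 5 members was -2.90 and -2.08 in Ezh1-present oil, -0.81 and -0.70 in Ezh1-present tamoxifen, 0.74 and 1.16 in Ezh1-null oil and 0.65 and 0.63 in Ezh1-null tamoxifen. It was taken over unscaled log2 values, so Ms4a3 and Elane, which had the widest ranges, weighed most in it. Of 6966 genes compared, Rbms1 (r = 0.995), Tmem180 (0.995), Ppp2cb (0.994), Rab21 (0.994) and B4galt6 (0.992) were most like this mean, followed by Elovl5, Ero1l, Glt1d1, Dram2 and Nfkb1 (0.990). Among these 10 genes Glt1d1, a glycosyltransferase-family gene, had the widest range, from -4.93 in Ezh1-present oil replicate 1 to 1.57 in Ezh1-null oil replicate 2.

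Genes that act with the members were then examined by role, on lists of granule biology. Each count of called genes with loss of Ezh1 in oil stands beside the 12.5% of all genes tested that were called higher and the 12.4% called lower. The lists were not refitted without Ezh1-present oil replicate 1. Leaving out that library gave the fewest called genes over the whole table in this comparison. Of 19 genes of other azurophil granule proteins, 10 rose and 0 fell in that comparison, with a median log2 change of 0.67 beside -0.04 over all genes. Prss57, the neutrophil serine protease 4 that is packed beside elastase, rose by 3.85 ± 0.29 (limma adjusted p = 0.0028). The lectin ficolin B gene Fcnb rose by 5.96 ± 0.92 (adjusted p = 0.0119), and Lyz2, encoding lysozyme, by 1.44 ± 0.34 (0.0366). Bpi, encoding the bactericidal permeability-increasing protein, did not pass (0.11 ± 0.28, adjusted p = 0.818). After tamoxifen in the Ezh1-present leukaemia, 3 of the 19 rose and 0 fell, where 0.903% of all genes were called, namely Prss57 (2.46 ± 0.29, adjusted p = 0.0421), the lysosomal protease gene Ctsb (1.08 ± 0.13, 0.0426) and Nkg7 (4.79 ± 0.57, 0.043), a granule membrane gene also expressed by NK and cytotoxic T cells. Without Ezh1-present tamoxifen replicate 2, which left 1 library in that group, these 3 calls did not hold. Fewer of all genes were called there too. The log2 changes were then 2.09 in Prss57, 1.03 in Ctsb and 4.14 in Nkg7. In the same comparison 9 of 9 T and NK cell markers had values above 0 (median 3.53, 1 called), with Cd3e at the lowest reported value in both Ezh1-present oil libraries. Log2 changes were also above 0 for 6 of 7 mast cell and basophil markers (median 3.32), 6 of 6 erythroid (2.18), 6 of 6 megakaryocyte (2.39) and 5 of 6 eosinophil markers (2.73), with 0 called in each of these lists. Medians were nearer to 0 for monocyte markers (-0.02, 4 of 8 above 0), stem and early progenitor markers (0.20, 5 of 9) and B cell markers (0.29, 5 of 7), again with 0 called. The part of these cells in the result was not tested.

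Of 8 genes whose proteins process and pack the granule contents, 2 rose and 0 fell with loss of Ezh1 in oil. Srgn, encoding serglycin, the proteoglycan core that holds the proteases in the granule, rose by 1.86 ± 0.22 (limma adjusted p = 0.00618), and Lyst, a regulator of lysosome-related organelle size, by 1.63 ± 0.18 (0.00549). Ctsc, encoding the dipeptidyl peptidase that activates elastase, proteinase 3 and cathepsin G, differed by -0.47 ± 0.15 in oil without passing (adjusted p = 0.0778) and fell by 0.75 ± 0.15 with loss of Ezh1 after tamoxifen (adjusted p = 0.039). Without Ezh1-present tamoxifen replicate 2 that change was -0.73 and was not called (adjusted p = 0.123). Of 8 inhibitors of these proteases 1 rose and 0 fell with loss of Ezh1 in oil, a share no larger than that of all genes. It was Serpinb1a, which encodes a cytosolic inhibitor of elastase, proteinase 3 and cathepsin G (1.98 ± 0.20, adjusted p = 0.00457). Of 8 haem synthesis genes 2 rose and 0 fell in the same comparison. They were Alas1, the first enzyme of haem synthesis in non-erythroid cells (2.06 ± 0.10, adjusted p = 0.002), and Ppox (0.54 ± 0.11, adjusted p = 0.0266).

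Of 12 transcription regulators of the granule genes, 6 rose and 1 fell with loss of Ezh1 in oil, beside 12.5% and 12.4% of all genes tested. Cebpe, which drives the step from promyelocyte to secondary granule formation, rose by 5.06 ± 0.57 (limma adjusted p = 0.00568). Cebpa, needed to form granulocyte-monocyte progenitors, rose by 1.18 ± 0.14 (adjusted p = 0.0066), and the repressor gene Gfi1 by 0.72 ± 0.16 (0.0328). Klf4 (2.32 ± 0.20), Ets1 (3.99 ± 0.50) and Lef1 (2.13 ± 0.40) also rose, and Cbfb, the RUNX1 partner, fell by 0.39 ± 0.09 (adjusted p = 0.0358). The genes of PU.1, MYB and RUNX1 did not pass. The difference was 0.28 ± 0.11 in Sfpi1, the older symbol of the PU.1 gene Spi1 (adjusted p = 0.126), 0.33 ± 0.13 in Myb (0.115) and -0.18 ± 0.20 in Runx1 (0.534). Irf8, the monocyte regulator, differed by -0.34 ± 0.22 (adjusted p = 0.308). Of 11 genes of the later secondary and tertiary granules, 7 rose and 0 fell in the same comparison, with a median of 2.80. Camp, encoding cathelicidin, rose by 5.38 ± 0.82 (adjusted p = 0.0113) and Ngp, encoding neutrophilic granule protein, by 4.97 ± 0.78 (0.0121).

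Markers of other lineages were counted in the same comparison of Ezh1-null with Ezh1-present oil, where 12.5% of all genes were called higher and 12.4% lower. Of 7 mast cell and basophil markers 5 rose and 0 fell (median 5.45), with library medians of -4.12 and -4.39 in Ezh1-present oil and 0.37 and 1.79 in Ezh1-null oil, and Fcer1a was at the lowest reported value in both Ezh1-present oil libraries. Of 7 B cell markers 5 rose and 0 fell (median 5.07), with library medians of -0.89 and -2.76 against 3.42 and 2.53, and Pax5 was at the lowest value in both Ezh1-present oil libraries. Monocyte markers were divided, with 3 of 8 higher and 3 lower. The counts were 1 of 6 higher for erythroid, 2 of 9 higher for T and NK cell, 2 higher and 2 lower of 9 for stem and early progenitor, 1 higher and 1 lower of 6 for megakaryocyte and 1 lower of 6 for eosinophil markers. The part of these cells in the members' rise was not tested.

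**Figure D4:**
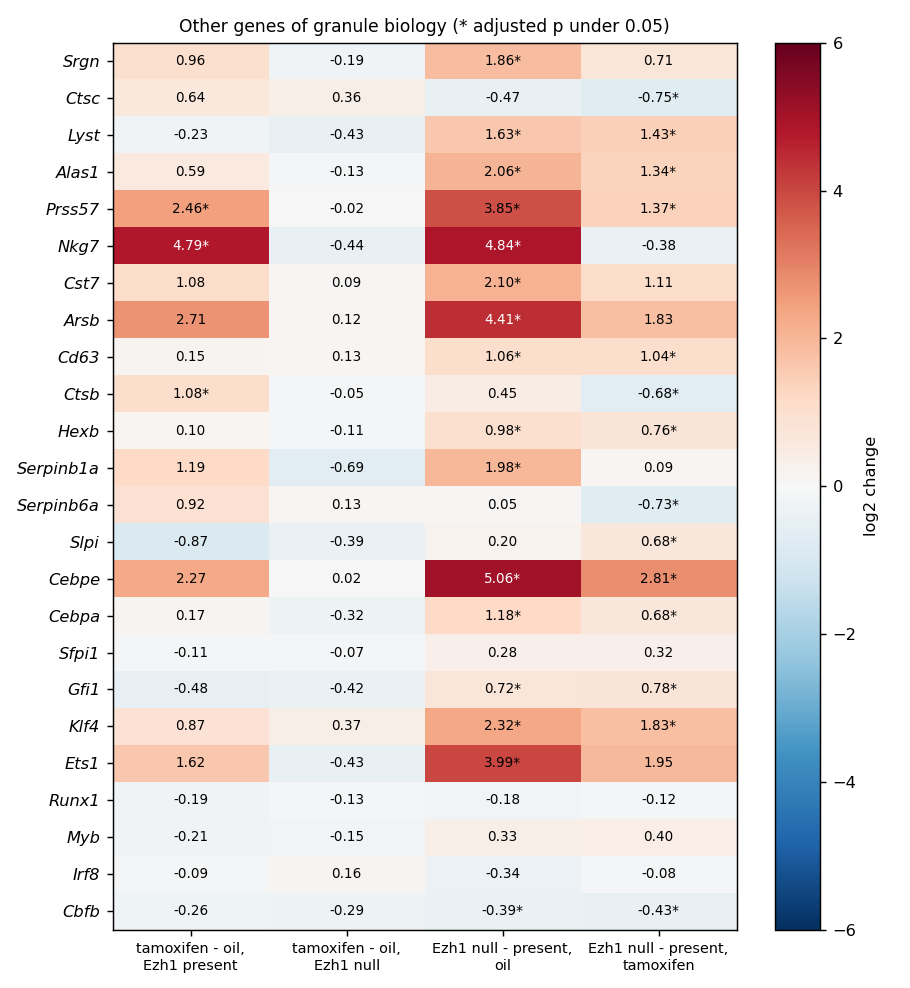
Log2 changes (printed and coloured) of 24 other genes of granule biology (rows) in the tamoxifen and Ezh1 comparisons (columns), with an asterisk for an adjusted p under 0.05. In the Ezh1 comparison in oil Cebpe is at 5.06 and Prss57 at 3.85, while Ctsc is at -0.47 and Runx1 at -0.18.

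The genes next to the members were compared to see whether the change followed the locus. Lpo, encoding lactoperoxidase, starts 2016 bp past the end of Mpo and rose by 3.53 ± 0.29 with loss of Ezh1 in oil (limma adjusted p = 0.00318). The peroxidase gene Epx, 59586 bp past Mpo, differed by 3.09 ± 1.11 without passing (adjusted p = 0.101). On the other side of Mpo, Bzrap1 differed by 0.35 ± 0.16 (adjusted p = 0.173). Past Elane, Cfd, encoding complement factor D, rose by 2.18 ± 0.49 (adjusted p = 0.0318) at a distance of 2637 bp. Farther out, Med16 was at -0.02 ± 0.09 (adjusted p = 0.925), and Ptbp1, before Prtn3, at -0.30 ± 0.11 (0.113). The other genes compared there were not called either, with BC005764, 5033 bp before Prtn3, at -0.41 ± 0.19 (adjusted p = 0.172), E130317F20Rik at -0.02 ± 0.11 (0.901), C030046I01Rik at 0.38 ± 0.15 (0.123) and Sbno2 at 0.09 ± 0.11 (0.591).

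At the Ctsg locus the flanking granule protease genes were not called in this comparison. Mcpt8, a basophil protease gene 14684 bp from Ctsg, differed by 0.50 ± 0.17 (limma adjusted p = 0.0845), and Gzmb, encoding granzyme B, by 0.19 ± 0.59 (0.84). At the Ms4a3 locus, Ms4a2, encoding the beta chain of the high-affinity IgE receptor of mast cells and basophils, lies 5854 bp away and rose by 8.11 ± 1.03 (adjusted p = 0.00728). Ms4a4d fell by 2.17 ± 0.56 (adjusted p = 0.0464), and Ms4a6d differed by -0.35 ± 0.17 (0.202). Oosp1, 26626 bp past Ms4a3, was at its lowest reported value of -4.07 in both Ezh1-present oil libraries, was -0.90 and -0.05 in Ezh1-present tamoxifen, 0.05 and 0.71 in Ezh1-null oil and 1.19 and 0.38 in Ezh1-null tamoxifen. It was called higher both with tamoxifen in the Ezh1-present leukaemia (adjusted p = 0.0426, and 0.138 without Ezh1-present tamoxifen replicate 2) and with loss of Ezh1 in oil (0.00397). The strand used in counting is not given in the sources used here, so reads of overlapping genes cannot be told apart, and the deposited span of Sbno2 covers Prtn3 and Elane.

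**Figure D5:**
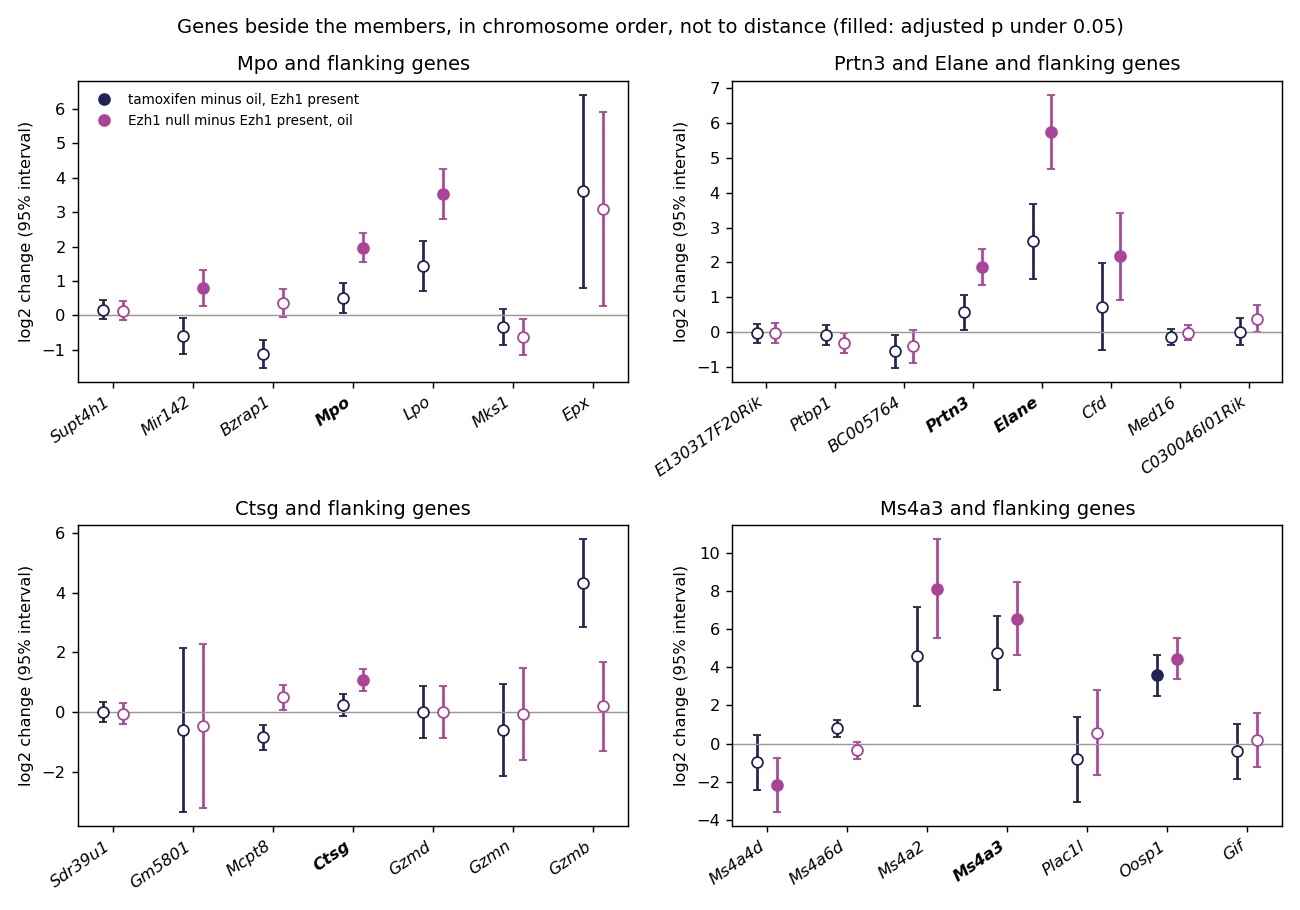
Log2 change with its 95% interval (y axis) for the members and the nearest genes of the table (x axis, in chromosome order and not to distance) at the 4 loci, with the tamoxifen comparison in the Ezh1-present leukaemia and the Ezh1 comparison in oil in separate colours. In the Ezh1 comparison in oil Lpo (3.53), Cfd (2.18), Ms4a2 (8.11) and Oosp1 are called higher beside the members. Ms4a4d is called lower, and Med16 lies at -0.02 and is not called.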

How the data were processed

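RNA-seq values came from a table of 31574 genes. Per the file headers, the authors kept genes between percentiles 20 and 100 of their raw data and deposited log2 normalized values of 8 libraries, centred on each gene's median, with fold changes (ratios, signed in 1 column). Build mm10 is per the submitters' processing notes. For the aligner, the counter and the scaling, nothing is given in the sources used here. Total depth is unknown. The deposited log2 fold changes equalled the differences of group means. A value tied within 2e-06 at a gene's lowest was taken as the floor, and 18051 genes with at least 2 libraries above it were tested.

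One limma fit (version 3.58.1, R 4.3.3) of 4 groups without a block gave all changes, with 4 residual and 1.24 prior degrees of freedom and Benjamini-Hochberg adjustment over all genes tested (call: adjusted p under 0.05). It was tested on simulated data. The comparisons were tamoxifen against oil in each Ezh1 genotype, Ezh1 null against present in each treatment, the double deletion against neither, and the interaction. Alternatives were a replicate block, other scalings, filters and fits, and each library left out. Lists and partners without Ezh1-present tamoxifen replicate 2 were added after seeing the data.

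The members and the 14 gene lists were chosen with earlier results of these data known, and the motifs and neighbours (the 3 nearest genes each side) after the data were seen. Of 130 listed genes, 127 matched and 124 were tested. Named were the members, Ezh1, Ezh2, a preset set of partners, up to 4 called genes of smallest p per granule list and comparison, and the 10 genes most like the members' mean (Pearson, range of at least 1). Kit, Fcnb, Lyz2, Bpi, Lef1, the markers at their lowest value and the neighbours printed were picked after their values were seen. Promoters came from RefSeq.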

Additional observations from a re-analysis of the deposited data

Results flagged for a closer look

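The values of Elane and Prtn3 differed with tamoxifen in opposite directions in the Ezh1 genotypes, in every library. With Ezh1 present, both tamoxifen libraries were above both oil libraries (log2 change 2.60 in Elane and 0.57 in Prtn3), and with Ezh1 null both were below (-0.74 and -0.34). Over all genes tested, the former pattern was found in 28.5% and the latter in 24.8%. The share of genes with both patterns was not computed. The test of the difference itself, the interaction in limma, gave -3.34 ± 0.59 in Elane (adjusted p = 0.112) and -0.91 ± 0.28 in Prtn3 (adjusted p = 0.258) and did not pass in either gene. Over the alternatives of the processing the adjusted p ranged from 0.0978 to 0.263 in Elane and from 0.192 to 0.475 in Prtn3.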

How the results depend on the processing

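Of 445 recomputed values of the 30 member results, 412 kept their direction and side of the threshold, 27 lost a call, 1 gained one and 5 changed direction. The rise with loss of Ezh1 in oil kept its call in Mpo, Elane, Prtn3 and Ms4a3 under all 15 alternatives. The directions that changed belonged to uncalled values, and an uncalled result that stayed uncalled counted as kept. Most of the lost calls were those for loss of Ezh1 after tamoxifen. Leaving out a library outside a comparison did not move the log2 change of that comparison. After quantile normalization the tamoxifen change of Mpo with Ezh1 present was -0.0099 and that of Ctsg with Ezh1 null was -0.1434. With each library left out, the tamoxifen change with Ezh1 null ran from -0.2718 to 0.0402 in Mpo and from -0.095 to 0.1496 in Ctsg.

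With the replicate block, the calls with loss of Ezh1 after tamoxifen were 2 members and 1179 genes (4 and 2204 without it), and Prtn3 (adjusted p = 0.0698) and Ctsg (0.0533) were lost. The block left 23 genes called (of 163) for tamoxifen with Ezh1 present, 364 (of 614) with Ezh1 null and 5 (of 86) for the interaction. Deviations of same-numbered replicates correlated between -0.062 and 0.079, which shows no shift over genes shared by replicate number. Whether same-numbered libraries share anything else is not given in the labels. With only the groups compared in the fit, 0 members and 46 genes were called for loss of Ezh1 after tamoxifen, and 0, 287, 2509 and 2493 genes for tamoxifen with Ezh1 present, tamoxifen with Ezh1 null, loss of Ezh1 in oil and the double deletion. For the interaction, quantile normalization gave 37 genes and the strict filter 6. Quantile normalization moved the share of higher calls from 91.2% to 74.8% for tamoxifen with Ezh1 null and from 67.4% to 54.1% for the interaction.

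With each library left out, genes called ranged from 24 (without Ezh1-present oil replicate 1) to 404 (without Ezh1-present tamoxifen replicate 1) for tamoxifen with Ezh1 present, 176 (without Ezh1-null tamoxifen replicate 2) to 469 with Ezh1 null, 1707 to 4004 for loss of Ezh1 in oil, 337 (without Ezh1-null tamoxifen replicate 1) to 1323 after tamoxifen, 1418 to 3726 for the double deletion and 17 to 98 for the interaction. The lowest counts for loss of Ezh1 in oil, the double deletion and the interaction were those without Ezh1-present oil replicate 1. Members called ranged from 0 to 1 for tamoxifen with Ezh1 present (1, Ms4a3, without Ezh1-present oil replicate 2) and from 0 to 3 for loss of Ezh1 after tamoxifen, with 0 without Ezh1-present tamoxifen replicate 2 or either Ezh1-null tamoxifen replicate, where a lone library was assumed to vary like the other groups. Total depth is unknown, so no counting error can be given.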
